A study of Rattus norvegicus with 16 samples.

Results

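Myosin-binding proteins and myomesins are proteins that bind the myosin filaments of the muscle sarcomere. The genes described here are Mybpc1, Mybpc2, Mybph, Mybphl, Myom1 and Myom2, found by their symbols in the annotation of the array. They make up 6 of 10416 genes tested and 7 of 31099 probe sets, since Mybpc2 had a pair (1373697_at, which stands for the gene, and 1376968_at) and the others 1 each: Mybpc1 1374248_at, Mybph 1368966_at, Mybphl 1389236_at, Myom1 1374895_at and Myom2 1373130_at. Messenger RNA came from 4 rats, whose strain, age and sex were not given in the sources used here. Rectus extraocular muscle (EOM), which moves the eye, was set against tibialis anterior (TA), a muscle of the lower leg. In each muscle, regions under the neuromuscular junction (synapse) and regions of fibre away from it (fiber) were cut out by laser from 10 µm frozen sections in which staining for acetylcholinesterase showed the junctions. This gave EOM_fiber and TA_fiber away from the junction and EOM_synapse and TA_synapse at it, 4 groups with 1 array from every rat (15, 25, 27 and 29), and the labels name no treatment. Each array pooled about 1000 captured regions of its muscle, so fibres of different types were mixed, and the precision rests on the number of rats.

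As background, myosin-binding protein C wraps the thick filament in regular stripes on either side of its middle and tunes how readily myosin heads reach actin. Mybpc1 encodes the slow skeletal form, which is also found in fast fibres, Mybpc2 the fast skeletal form, and Mybpc3 the cardiac form. Mybph encodes H-protein, a shorter relative, and Mybphl an H-protein-like relative known chiefly from the atria and conduction system of the heart. At the M-band, in the centre of the sarcomere, myomesin (Myom1) bridges neighbouring myosin filaments and binds titin in all striated muscle, and M-protein (Myom2) is a further bridge known from fast and cardiac fibres.

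The sequence upstream of the gene start is given for the 3 genes past the test between the muscles that have a window in the RefSeq tables, Mybpc1, Mybpc2 and Mybphl. Each run is the 250 bases before the RefSeq start in GRCr8, 5′ to 3′ on the strand of the gene, and capitals mark motif matches. RefSeq tables held such a window for 4 of the 6 genes, Myom1 among them. Mybpc1 lies at chr7:24903374-24903623 on the minus strand, Mybpc2 at chr1:104154102-104154351 on the minus strand, and Mybphl at chr2:198693202-198693451 on the plus strand.
Mybpc1: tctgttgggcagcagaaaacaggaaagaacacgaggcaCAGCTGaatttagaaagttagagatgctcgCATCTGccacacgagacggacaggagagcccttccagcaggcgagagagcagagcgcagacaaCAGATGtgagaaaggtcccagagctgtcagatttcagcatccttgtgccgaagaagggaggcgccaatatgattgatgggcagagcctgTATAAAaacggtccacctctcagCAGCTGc
Mybpc2: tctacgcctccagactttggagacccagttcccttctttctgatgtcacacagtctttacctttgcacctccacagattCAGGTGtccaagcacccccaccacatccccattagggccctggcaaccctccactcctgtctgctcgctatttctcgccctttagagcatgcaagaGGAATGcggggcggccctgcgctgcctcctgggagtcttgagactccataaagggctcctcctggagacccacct
Mybphl: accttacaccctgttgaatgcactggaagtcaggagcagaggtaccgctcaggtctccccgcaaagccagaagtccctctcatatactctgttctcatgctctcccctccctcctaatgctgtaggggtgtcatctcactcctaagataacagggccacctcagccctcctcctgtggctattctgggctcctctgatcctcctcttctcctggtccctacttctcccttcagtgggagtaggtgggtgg
Both strands were searched for 5 motifs, the E-box (CANNTG), the MCAT element (CATTCC), the TATA box (TATAAA), and the MEF2 and CArG motifs by their usual consensus. A MEF2 match can hold a TATA box inside it. The Mybpc1 window held 4 E-boxes and 1 TATA box, the Mybpc2 window held 1 E-box and 1 MCAT element (on the other strand), and the Mybphl window held none of the 5. The Myom1 window, at chr9:118366896-118367145 on the plus strand, held 2 E-boxes. Of 33469 promoter windows of the same length, 65.5% held an E-box, 12.1% an MCAT element, 12.9% a TATA box, 2.96% a MEF2 motif and 1.5% a CArG motif. These matches are letters in a window and say nothing of binding.

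The labels were checked against marker genes. Of 9 measured junction genes, 8 rose at the junction in each muscle, Chrne, the adult acetylcholine receptor subunit, by 6.36 ± 0.32 in EOM and 6.03 ± 0.32 in TA (log2 ± SE). Myh13, the extraocular myosin heavy chain, was at 13.51 or above on average in both EOM groups and at 5.53 or below in both TA groups. Between arrays of a group the correlation across probe sets was 0.867 to 0.949, and median intensity ran from 33.4 to 57.0. Markers of other cells moved with the groups. The summed intensity of 9 Schwann cell genes was 1756 to 2722 in EOM_fiber, 6987 to 11839 in EOM_synapse, 535 to 806 in TA_fiber and 3458 to 5548 in TA_synapse, and 6 of the 9 rose at the junction in each muscle. The 11 fibroblast genes summed to 8100 to 27345, 22339 to 36924, 2534 to 8041 and 16176 to 27714 in the same order, with 5 higher at the junction in EOM and 8 in TA. Of 10 neuron markers, 8 lay below the filter on low values, and the other 2 summed to 174 to 276, 167 to 440, 9.56 to 37.2 and 81.4 to 97.3. Both were higher in EOM, Nefm, a neurofilament gene, by 2.73 in fibre and 1.42 between junctions and Gap43, a growth cone gene, by 1.65 and 0.76, and Gap43 rose at the TA junction (1.33, adjusted p = 0.0018). The TA_fiber means of Nefm (4.53) and Gap43 (4.87) and the TA_synapse mean of Nefm (5.38) lay below the common array median of 5.88. The sizes of these differences thus depend on the constant of 16 added before the log. The part of these cell markers in the results below was not tested. The 3′ to 5′ ratio of the Gapdh control probes, in which RNA quality and amplification cannot be told apart, had group medians of 10.2 to 13.1. That of the actin control had medians of 8.58 in EOM_fiber (8.35 to 12.0 over arrays), 12.0 in EOM_synapse (5.27 to 26.9), 20.0 in TA_fiber (10.3 to 28.0) and 19.9 in TA_synapse (13.1 to 22.9).

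Between the muscles, Myom2 and Mybphl differed most among the 6 genes, in opposite directions. Myom2 was 13.3-fold lower in EOM than in TA in fibre regions and 142-fold lower under the junction. The junction fold depends on the constant added before the log, since the EOM_synapse intensity of Myom2 was as low as 43.1. Mybphl was higher in EOM by 4.97 in fibre and 4.33 under the junction (log2), sizes that depend on the constant of 16 added before the log, since it lay above the array median on 2 of 4 TA_fiber arrays and 1 of 4 TA_synapse arrays. Mybpc1 and Mybpc2 were lower in EOM in both regions, and Mybph and Myom1 did not pass the test in either. A gene counts as past the test at a Benjamini-Hochberg adjusted p under 0.05 over all 10416 genes (limma, rat as a block). In EOM_fiber against TA_fiber 4 of the 6 genes passed, 1 higher and 3 lower, where 15.6% of all genes passed (8.40% higher and 7.15% lower). In EOM_synapse against TA_synapse the count was again 4, 1 higher and 3 lower, beside 16.4% of all genes (7.82% and 8.61%). The median difference of the 6 genes was -0.63 in fibre and -0.69 at the junction, and the median of all genes was 0.03 and 0.01. All 6 genes passed the filter on low values, which asks for an intensity above the median of the array in at least 4 arrays, but Mybphl did so through its EOM arrays.

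**Figure D1:**
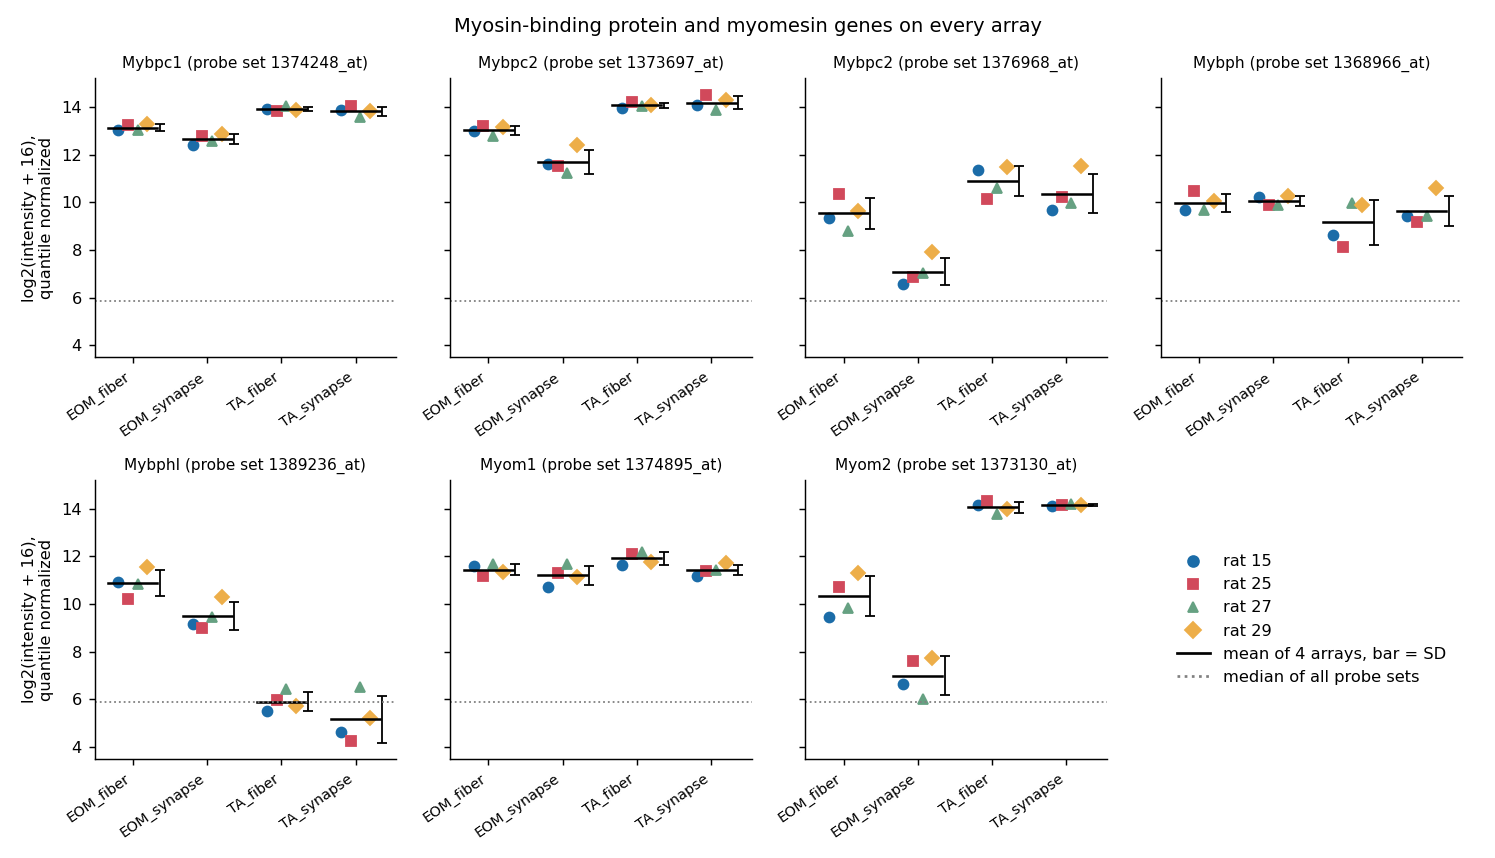
Quantile-normalized log2(intensity + 16) (y axis) of the 7 probe sets, 1 panel each, in the 4 groups (x axis), with 1 marker per rat, a line for the mean of 4 arrays, a bar for the SD and a dotted line for the median of all probe sets. Myom2 lies between 6.03 and 7.73 in EOM_synapse and between 13.78 and 14.32 in both TA groups, and Mybphl is at 8.98 or above on every EOM array and at 6.51 or below on every TA array.

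Within a muscle, Myom2, Mybpc2 and Mybphl fell at the EOM junction, and no member passed at the TA junction. In EOM_synapse against EOM_fiber 3 of the 6 genes passed, all lower, where 10.1% of all genes passed (5.62% higher and 4.51% lower), and the median difference was -0.91 against -0.04 over all genes. In TA_synapse against TA_fiber 0 of the 6 passed with limma and 2 (Myom1 and Mybphl) had an unadjusted p under 0.05, where 10.2% of all genes passed (6.70% higher and 3.53% lower), and the median difference was 0.00 against -0.01. Whether the EOM and TA junction differences were themselves unequal was tested as an interaction (EOM minus TA). It was past the threshold for 2 of the 6, Myom2 and Mybpc2, both negative, where 0.922% of all genes passed (0.259% positive and 0.662% negative). In such captured regions less RNA per fibre and a smaller share of fibre in the region cannot be told apart. The summed intensity of 9 genes of all muscle fibres was 137780 to 188132 in EOM_fiber, 79652 to 109373 in EOM_synapse, 176916 to 315754 in TA_fiber and 143087 to 184524 in TA_synapse, lowest in EOM_synapse. Its part in these differences, and that of the Schwann cell and fibroblast markers above, was not tested. With arrays centred on those 9 genes, a setting chosen after the data were seen, the median of all genes stood at 0.66 to 0.84 in the 4 comparisons of 2 groups. The calls among the 6 genes were then 2 higher and 2 lower in fibre, 2 and 3 between junctions, 0 and 2 in EOM_synapse against EOM_fiber and 1 and 0 in TA. In the same order, 5973, 6340, 4973 and 4479 of all 10416 genes passed in this setting. These are far more than in the main setting, so calls on the muscle genes, here and below, set a gene apart less. With values as deposited the TA comparison gave 0 higher and 2 lower, Mybpc1 (-0.57, adjusted p = 0.0452) and Myom1.

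**Figure D2:**
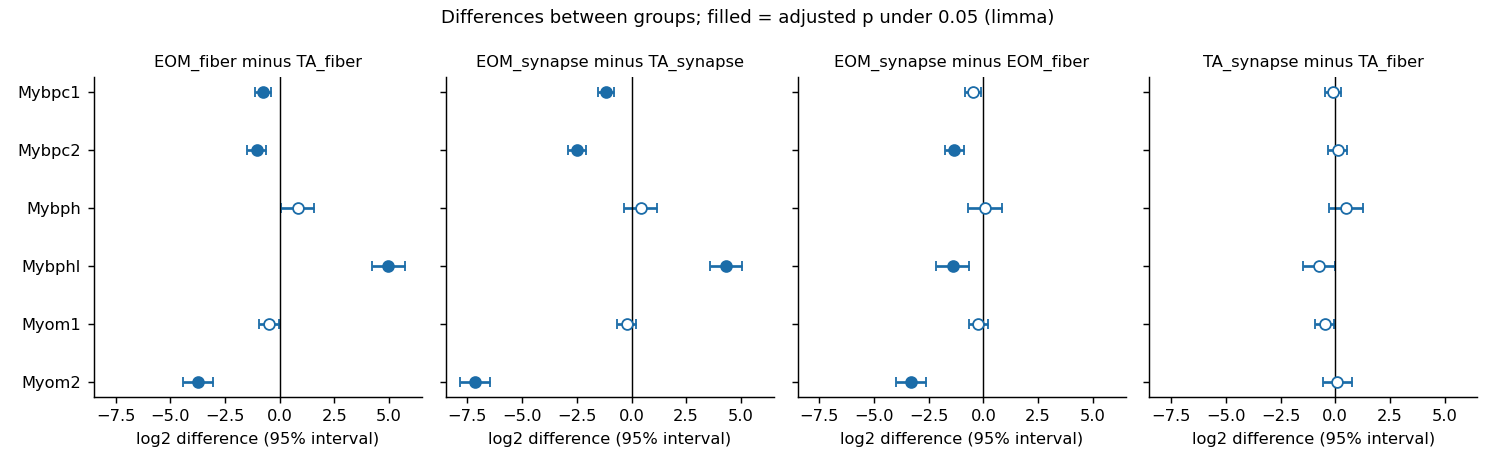
Log2 differences (x axis) with 95% confidence intervals for the 6 genes (rows) in the 4 comparisons of 2 groups (panels), filled where the adjusted p is under 0.05. Myom2 runs from -7.15 (EOM_synapse minus TA_synapse) to 0.09 (TA_synapse minus TA_fiber), and Myom1 and Mybph have no filled point.

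Mybpc1, the slow form of myosin-binding protein C, was lower in EOM than in TA in both regions. On the EOM_fiber arrays it stood at 13.02, 13.23, 13.04 and 13.27 (rats 15, 25, 27 and 29, log2(intensity + 16) here and below), and on the TA_fiber arrays at 13.91, 13.85, 14.06 and 13.87. On the EOM_synapse arrays it was at 12.40, 12.79, 12.59 and 12.87, and on the TA_synapse arrays at 13.86, 14.02, 13.58 and 13.85. Every TA array was above every EOM array, and the pair of EOM groups did not overlap either, with the junction lower. EOM_fiber was below TA_fiber by -0.78 ± 0.17 (SE, adjusted p = 0.00708, lower in 4 of 4 rats). This call was lost without rat 27 (adjusted p = 0.0594), with only the arrays of the contrast (0.0662) and with arrays centred on the 9 muscle genes (-0.44, adjusted p = 0.0812). EOM_synapse was below TA_synapse by -1.16 ± 0.17 (adjusted p = 0.000421, 4 of 4 rats). Between EOM_synapse and EOM_fiber the difference of -0.48 ± 0.17 was of the same sign in 4 of 4 rats and missed the threshold (adjusted p = 0.0953). It passed with values as deposited (-0.80, adjusted p = 0.0101) and with an intensity trend and robust prior (-0.48, adjusted p = 0.0246). In TA the difference was -0.09, with a 95% interval of -0.46 to 0.27. The order of the means was TA_fiber (13.92 ± 0.10, SD, n = 4), TA_synapse (13.83 ± 0.18), EOM_fiber (13.14 ± 0.13) and EOM_synapse (12.66 ± 0.21), in which neither the TA groups nor the EOM groups differed past the threshold from each other.

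Mybpc2, the fast form, was lower in EOM as well. The difference was larger at the junction than away from it, but the call on that inequality was not steady. In EOM_fiber it was at 12.98, 13.18, 12.79 and 13.16, and in TA_fiber at 13.95, 14.23, 14.02 and 14.08. In EOM_synapse it was at 11.60, 11.53, 11.24 and 12.40, and in TA_synapse at 14.08, 14.51, 13.87 and 14.29. The EOM_synapse arrays were all below the EOM_fiber arrays, which were all below the TA arrays, and the TA groups overlapped. The fibre difference between muscles was -1.04 ± 0.20 (2.06-fold lower, adjusted p = 0.00331) and the junction difference -2.49 ± 0.20 (5.63-fold lower, adjusted p = 2.78e-06), each in 4 of 4 rats. EOM_synapse was below EOM_fiber by -1.33 ± 0.20 (adjusted p = 0.000892, 4 of 4 rats), while TA_synapse minus TA_fiber was 0.12, with an interval of -0.31 to 0.55. The sign of this last value turned with scaling, to -0.34 with values as deposited and -0.38 with arrays centred on a common median. The interaction was -1.45 ± 0.28 (adjusted p = 0.0285, 4 of 4 rats), close to the threshold: the call was lost without the rat block (adjusted p = 0.052), without any 1 of 11 of the 16 arrays (all but EOM_fiber 15 and 29, EOM_synapse 29, TA_fiber 27 and TA_synapse 27; adjusted p = 0.0507 to 0.0756) and without rat 15, 25 or 27 (0.166 to 0.201). Scaling by a common median gave -1.06 (adjusted p = 0.269).

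The second Mybpc2 probe set, 1376968_at, gave the same directions between muscles and in EOM with wider spread than the first, 1373697_at. It stood at 9.36, 10.34, 8.78 and 9.65 in EOM_fiber and 6.58, 6.87, 7.03 and 7.90 in EOM_synapse, and these groups did not overlap. In TA it was at 11.34, 10.16, 10.59 and 11.47 in fibre and 9.70, 10.21, 9.99 and 11.53 at the junction, with the 2 groups overlapping. In a fit that kept all 13647 probe sets apart it differed between muscles by -1.36 ± 0.36 in fibre (adjusted p = 0.0222, 3 of 4 rats) and by -3.26 ± 0.36 at the junction (adjusted p = 5.55e-05). EOM_synapse was below EOM_fiber by -2.44 ± 0.36 (adjusted p = 0.000888), and its interaction of -1.91 ± 0.50 did not pass (adjusted p = 0.132). At the TA junction the sign differed from the first probe set. The second gave -0.53 (limma adjusted p = 0.439 where it stood for the gene) and the first 0.12.

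Mybph, which encodes H-protein, was measured on all arrays and passed no test in the main setting. It was at 9.68, 10.49, 9.69 and 10.08 in EOM_fiber and at 8.64, 8.11, 9.99 and 9.91 in TA_fiber. It was at 10.23, 9.90, 9.87 and 10.27 in EOM_synapse and at 9.42, 9.17, 9.42 and 10.59 in TA_synapse. The EOM arrays kept within a narrow band, the TA_fiber arrays formed a lower pair (rats 15 and 25) and a higher pair (rats 27 and 29), and all groups overlapped with at least 1 other. The fibre difference between muscles was 0.82 ± 0.36 (adjusted p = 0.141, 3 of 4 rats), with a 95% interval of 0.05 to 1.59. It passed without TA_fiber 27 (1.17, adjusted p = 0.0379) and with arrays centred on the 9 muscle genes (1.46, adjusted p = 0.00819). The other differences were 0.42 ± 0.36 between junctions, 0.08 ± 0.36 in EOM and 0.49 ± 0.36 in TA (adjusted p = 0.475, 0.914 and 0.461), and each interval reached both signs. On the muscle genes it also passed between junctions (1.15, adjusted p = 0.0252) and at the TA junction (1.13, adjusted p = 0.0382).

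Mybphl, the H-protein-like gene, was measured in EOM and near the lower end of the scale in TA. It was at 10.94, 10.22, 10.82 and 11.56 in EOM_fiber and at 9.17, 8.98, 9.47 and 10.31 in EOM_synapse. It was at 5.51, 5.97, 6.44 and 5.71 in TA_fiber and at 4.64, 4.27, 6.51 and 5.22 in TA_synapse, against a common array median of 5.88. As deposited, the intensity ran from 1160 to 2937 in EOM_fiber, 492 to 1192 in EOM_synapse, 28.1 to 61.1 in TA_fiber and 2.64 to 82.8 in TA_synapse. It lay above the array median on all 8 EOM arrays, on 2 of 4 TA_fiber arrays and on 1 of 4 TA_synapse arrays, so its TA level is close to the background of the array and the folds below depend on the constant of 16. EOM exceeded TA by 4.97 ± 0.35 in fibre (31.4-fold, 95% interval 18.7 to 52.8, adjusted p = 1.45e-06) and by 4.33 ± 0.35 at the junction (20.1-fold, adjusted p = 2.78e-06), in 4 of 4 rats. Over the alternatives the fibre difference was 4.15 to 5.68 and the junction difference 3.13 to 5.43, past the threshold in each.

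Mybphl was also lower at the EOM junction than in EOM fibre, by -1.40 ± 0.35 (adjusted p = 0.021, 4 of 4 rats, within-rat differences -1.76 to -1.24). The EOM groups overlapped by 1 array, since rat 29 at the junction (10.31) was above rat 25 in fibre (10.22). The call was lost in 11 of 34 alternatives. Among them were the fit without the rat block (adjusted p = 0.0506), a constant of 1 (0.145) and arrays centred on the 9 muscle genes (-0.61, adjusted p = 0.146). Leaving out EOM_fiber 15 or 29, EOM_synapse 15, 25 or 27, or rat 15, 25 or 29 also ended it (adjusted p = 0.0544 to 0.141). In TA the difference of -0.75 ± 0.35 did not pass (adjusted p = 0.211), and neither did the interaction (-0.65 ± 0.49, adjusted p = 0.699), so the EOM difference was not shown to differ from that in TA.

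Myom1, which encodes the myomesin common to all striated muscle, varied little. It was at 11.58, 11.17, 11.67 and 11.32 in EOM_fiber and at 11.63, 12.11, 12.20 and 11.75 in TA_fiber. It was at 10.73, 11.29, 11.68 and 11.13 in EOM_synapse and at 11.18, 11.40, 11.43 and 11.72 in TA_synapse. TA_fiber was highest on average (11.92 ± 0.28), and it overlapped EOM_fiber in a single array from each. The fibre difference between muscles was -0.49 ± 0.21 (adjusted p = 0.129) and TA_synapse minus TA_fiber was -0.49 ± 0.21 (adjusted p = 0.164), each negative in 4 of 4 rats and short of the threshold. With values as deposited both passed, at -0.75 (adjusted p = 0.020) and -0.69 (adjusted p = 0.0386), and with a common median the fibre difference passed (-0.90, adjusted p = 0.026). The junction difference between muscles was -0.22 (interval -0.67 to 0.22) and that between the EOM regions -0.23 (interval -0.67 to 0.21); both became 0.42 with arrays centred on the 9 muscle genes and passed in neither setting.

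Myom2, which encodes M-protein, had the widest range of the 6 genes. In TA_fiber it was at 14.17, 14.32, 13.78 and 13.98 and in TA_synapse at 14.12, 14.14, 14.20 and 14.17. In EOM_fiber it was at 9.44, 10.73, 9.84 and 11.29 and in EOM_synapse at 6.64, 7.61, 6.03 and 7.73. The TA arrays sat together near the top of the scale, the EOM_fiber arrays lay well below them, and the EOM_synapse arrays lay below every EOM_fiber array. The deposited intensities were 18254 to 32643 in TA_fiber, 16075 to 20731 in TA_synapse, 634 to 2423 in EOM_fiber and 43.1 to 212 in EOM_synapse, above the array median on all 16 arrays. The order of the rats was the same in both EOM groups except for rats 15 and 27, with rat 29 highest and rat 25 next.

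Myom2 was lower in EOM_fiber than in TA_fiber by -3.73 ± 0.32 (13.3-fold, 95% interval 8.31 to 21.3, adjusted p = 9.16e-06), with 6 genes at a larger negative difference. Between junctions it was lower by -7.15 ± 0.32 (142-fold, interval 88.9 to 228, adjusted p = 1.5e-08), the largest negative difference among the 10416 genes in this fit. EOM_synapse was below EOM_fiber by -3.33 ± 0.32 (10.0-fold, adjusted p = 2.04e-05), rank 3 by negative difference, while TA_synapse minus TA_fiber was 0.09, with an interval of -0.59 to 0.77. That TA value changed sign with scaling, to -0.37 as deposited and -0.41 with a common median. The interaction was -3.42 ± 0.45 (interval -4.38 to -2.46, adjusted p = 0.00207), negative in each rat, from -4.23 to -2.76. The 4 calls held in every alternative run, with the interaction between -3.70 and -2.71 and its highest adjusted p at 0.0314, without rat 27.

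**Figure D3:**
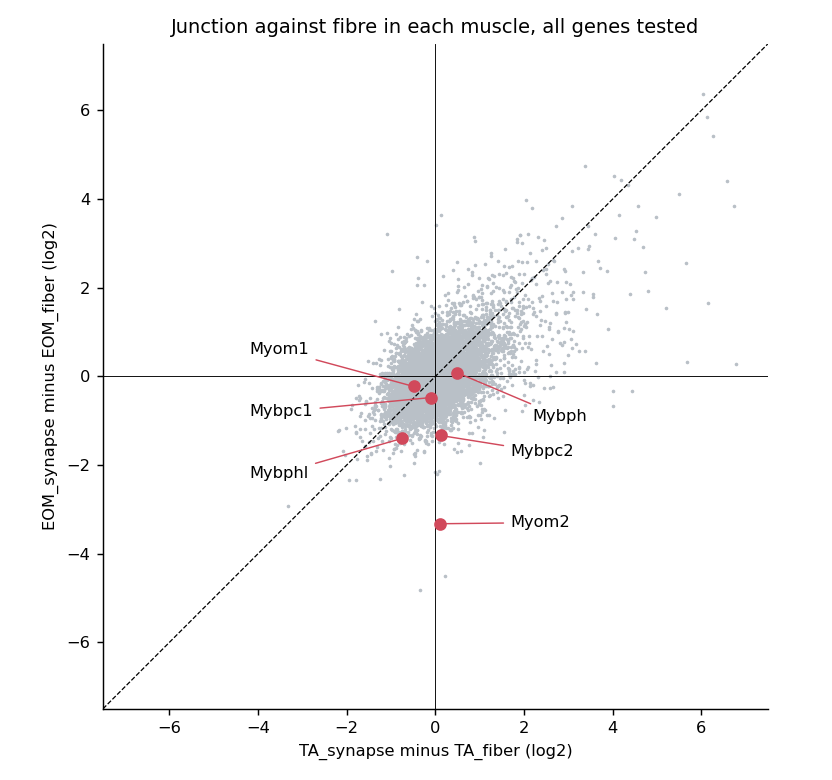
Junction difference in TA (TA_synapse minus TA_fiber, x axis) against that in EOM (EOM_synapse minus EOM_fiber, y axis), both in log2(intensity + 16), for all genes tested, with the 6 genes marked. Myom2 lies at 0.09 and -3.33 and Mybpc2 at 0.12 and -1.33, below the line of equal differences.

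Within each family the differences were unequal, as the values above show. The within-array log2 ratio of Myom1 to Myom2, of which only the change between groups can be read because the probes differ, was 0.037 to 2.14 in EOM_fiber, 3.40 to 5.65 in EOM_synapse, -2.53 to -1.57 in TA_fiber and -2.94 to -2.45 in TA_synapse. It was higher on every EOM array than on every TA array, and highest at the EOM junction. The ratio of Mybpc1 to Mybpc2 was 0.46 to 1.35 in EOM_synapse and at most 0.25 in the other groups. The ratio of Mybphl to Mybph was -0.27 to 1.48 in EOM_fiber, -1.06 to 0.043 in EOM_synapse and at most -2.15 in TA. Mybpc3, the cardiac relative and not among the 6, was dim, with deposited intensities of 65.8 to 107 in EOM_fiber and 9.70 to 37.6 in TA_fiber. It was higher in EOM fibre by 1.24 ± 0.37 (adjusted p = 0.0383), and the junction difference between muscles of 1.14 ± 0.37 missed the threshold (adjusted p = 0.0521), which it passed with values as deposited (1.26, adjusted p = 0.0208) and a common median (1.27, adjusted p = 0.046). It lay above the array median on all 8 EOM arrays, on 1 of 4 TA_fiber arrays and on 2 of 4 TA_synapse arrays, so the size of these differences depends on the constant too.

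Across the 16 arrays, Mybpc1, Mybpc2 and Myom2 followed each other closely. Their Pearson correlations were 0.958 (Mybpc1 and Mybpc2), 0.971 (Mybpc1 and Myom2) and 0.975 (Mybpc2 and Myom2), as a description over arrays that share rats and groups. Mybphl ran opposite to them (-0.80, -0.72 and -0.77), and Myom1 followed Myom2 weakly (0.48). Among 10415 other genes, those with patterns most like Myom2 were Faf1 (0.987), Myot, which encodes the Z-disc protein myotilin (0.980), and Mybpc2. Those most like Mybpc2 were Gpd1, a glycerol-3-phosphate dehydrogenase (0.978), Myom2 and Myoz1, a Z-disc protein of fast fibres (0.973). For Mybpc1 they were Myom2, Acta1, the skeletal actin (0.970), and Faf1 (0.961). Mybphl was most like Eno1, a glycolytic enolase (0.962), Myh13 (0.957) and Guca1a (0.957). The nearest genes to Mybph were Rarres2 (0.852), Purg (0.843) and Pdgfrl (0.840) and to Myom1 Ift22 (0.827), Rgn (0.826) and Tmem242 (0.782), at lower values than for the other 4 genes.

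A list of other genes of the M-band and of titin-associated partners had more calls upward than downward between the muscles. In the main setting none of these calls was for Ttn, Ckm or Obsl1. Of 18 genes listed, 13 were measured. In EOM_fiber against TA_fiber 5 of the 13 rose and 0 fell: Fhl2, a LIM protein that binds titin (1.60 ± 0.24), Mybpc3, Smpx, a small muscle protein (1.22 ± 0.25), Sptbn1, a spectrin (1.20 ± 0.20), and Sqstm1, an autophagy receptor tied to titin kinase (0.73 ± 0.21). The split was 4 and 2 with values as deposited, 3 and 1 with a common median and 8 and 0 with arrays centred on the 9 muscle genes. The TA means of Fhl2 (5.41 in fibre, 5.67 at the junction) and the TA_fiber mean of Mybpc3 (5.39) lay below the common array median of 5.88. Their differences are thus against values near background, and the sizes depend on the constant. Between junctions 3 rose, Smpx (2.01), Sptbn1 (1.32) and Fhl2 (0.99), and Cmya5, or myospryn, fell by 1.22 (4 and 3 as deposited, 7 and 0 on the muscle genes). Smpx fell at the junction in both muscles (-0.90 in EOM and -1.69 in TA), and no other gene of the list passed there. The EOM call was lost with values as deposited (-0.89, adjusted p = 0.0623), a common median (-0.76, adjusted p = 0.245) and the muscle genes (-0.15, adjusted p = 0.719); with arrays centred on the muscle genes 1 rose and 0 fell in EOM, and 4 rose and 1 fell in TA. Titin itself (Ttn) was at -0.09 ± 0.25 in fibre and -0.51 ± 0.25 between junctions, and muscle creatine kinase (Ckm), which docks at the M-band, at -0.02 ± 0.17 and -0.32 ± 0.17, none past the threshold. The ring-finger proteins Trim63 and Trim54, calpain 3 (Capn3), Obsl1 and Ank1 passed in no comparison. The median of the list was 0.18 in fibre and -0.04 between junctions.

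Genes that fold, modify or phosphorylate thick filament proteins were measured for 6 of 10 listed. Mylk2, the skeletal myosin light chain kinase, fell in EOM by 1.86 in both fibre and junction comparisons (adjusted p = 0.000108 and 8.68e-05) and showed no junction difference past the threshold in either muscle (0.03 in each). Smyd1, a methyltransferase needed for myosin assembly, was higher in EOM fibre by 0.68 ± 0.21 and fell at the EOM junction by 0.95 ± 0.21. Speg, a kinase of the striated muscle triad, fell at the EOM junction by 0.89 and was lower there than in TA_synapse (-0.99 ± 0.21), and Cryab, a small heat shock protein, fell at the EOM junction by 0.89. The list had 1 higher and 1 lower in fibre, 0 and 2 between junctions, 0 and 3 within EOM and 0 and 0 within TA. With a common median the count within EOM was 0 and 0, and with arrays centred on the muscle genes it was 1 and 0. In fibre the split was 0 and 1 with a common median and 4 and 1 on the muscle genes, where between junctions it was 3 and 1 and within TA 1 and 0.

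Among the myosin heavy chains, but not the light chains, the calls between muscles were mostly upward in EOM. Of 9 measured heavy chains, 4 were higher and 0 lower in EOM fibre, 3 higher and 1 lower between junctions, 0 and 4 at the EOM junction and 0 and 1 at the TA junction (4 and 1 in fibre with values as deposited or a common median; 0 and 5 at the EOM junction as deposited; 0 and 3 at the TA junction as deposited and 0 and 2 with a common median; 6 and 0, 6 and 1, 1 and 4, and 1 and 1 on the muscle genes). Myh2, the fast 2A chain, was at -0.67 ± 0.25 between fibres (adjusted p = 0.084), fell by 2.19 between junctions and fell by 2.22 at the EOM junction, and its interaction of -1.52 ± 0.35 missed the threshold (adjusted p = 0.0691). Myh4, the fast 2B chain, differed by 0.11 ± 0.17 between fibres and -0.11 ± 0.17 between junctions, with neither past the threshold. The 4 heavy chains higher in EOM fibre were Myh3, Myh6, Myh8 and Myh13. Their TA_fiber means (5.43, 5.19, 5.18 and 5.53) lay below the common array median of 5.88, so these calls are against values near background. The TA_synapse means of the 3 higher between junctions, Myh6, Myh8 and Myh13 (5.27, 5.68 and 4.53), did too. On every EOM array these chains lay above that median, which was enough to pass the filter on low values. A chain low in TA enters the test only when it is high in EOM, so the upward direction of these calls is no separate support. Of 4 light chains, Myl3, the slow and ventricular chain, was at -1.78 in fibre and -2.16 between junctions, both past the threshold, and Myl4, the embryonic and atrial chain, rose at the junction by 5.85 in EOM and 6.12 in TA. Across the light chains the counts were 0 higher and 1 lower in each comparison between muscles and 1 and 2 at the junction in each muscle.

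**Figure D4:**
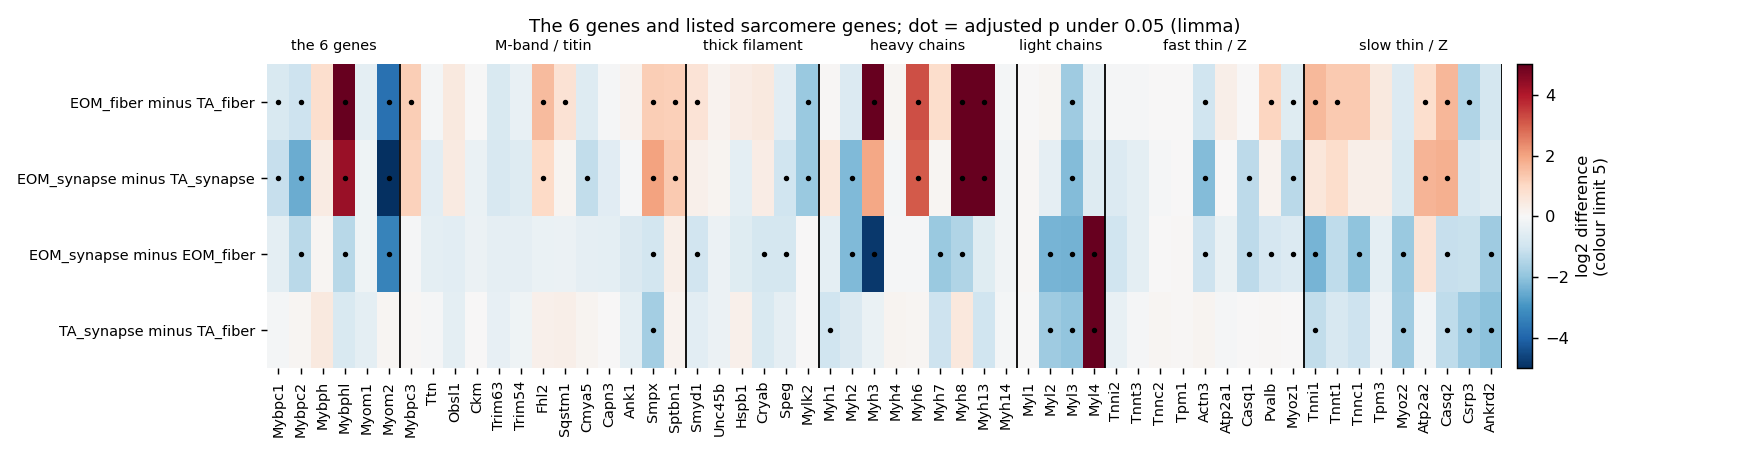
Heat map of log2 differences in the 4 comparisons of 2 groups (rows) for the 6 genes and the measured genes of 6 lists of sarcomere and related genes (columns). Red is higher and blue lower, with colours capped at 5 either way and a dot where the adjusted p is under 0.05. Mybphl is red and Myom2 blue in both comparisons of muscles, at 4.33 and -7.15 between junctions, while Ttn and Ckm have no dot.

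A list of fast-fibre genes held 9 of the thin filament, the Z-disc and calcium handling. Of these 9, 0 rose and 4 fell at the EOM junction and 0 passed at the TA junction with limma. The 4 were Casq1, the fast calsequestrin (-1.32 ± 0.21), Actn3, the fast alpha-actinin (-1.03 ± 0.20), Pvalb, or parvalbumin (-0.83 ± 0.21), and Myoz1 (-0.70 ± 0.18), and none of the 4 had an interaction past the threshold (the nearest was Casq1, -1.33 ± 0.30, adjusted p = 0.0544). At the EOM junction the split was 0 and 6 with values as deposited, 0 and 5 with a common median and 0 and 2 on the muscle genes. Between junctions of the muscles 3 fell, Actn3 (-2.17), Myoz1 (-1.35) and Casq1 (-1.30), and in fibre 1 rose (Pvalb, 1.07) and 2 fell (Actn3, adjusted p = 0.00454, and Myoz1, -0.62); with a common median the fibre split was 0 and 2, and on the muscle genes 2 and 1. Between junctions it was 0 and 5 with values as deposited, 0 and 4 with a common median and 1 and 3 on the muscle genes. Of 9 slow counterparts, 5 fell at the junction in each muscle, among them Myoz2 (-1.86 in EOM, -1.77 in TA) and Tnni1, the slow troponin I (-2.31 and -1.25), while on the muscle genes 1 rose and 3 fell in EOM. In fibre 4 of the slow genes rose in EOM and 1 fell, with Casq2 (1.66 ± 0.33) and Tnni1 (1.62 ± 0.37) leading (2 and 1 with values as deposited, 6 and 0 on the muscle genes).

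Genes known from heart muscle, the tissue in which Mybphl and Mybpc3 are best known, were measured for 8 of 12 listed. Not all are of the sarcomere, since Pln, Sln and Nppa lie outside it. In EOM fibre 5 were higher, Myh6, the alpha-cardiac myosin (3.21 ± 0.62), Pln, or phospholamban (3.18 ± 0.44), Sln, or sarcolipin (2.85 ± 0.53), Tnnt2, the cardiac troponin T (2.80 ± 0.47), and Mybpc3, and Myl3 was lower. Between junctions Myh6 (3.07), Pln (2.23) and Tnnt2 (1.46) were higher and Myl3 lower. The TA_fiber means of Myh6 (5.19), Tnnt2 (5.01) and Mybpc3 (5.39) and the TA_synapse means of Myh6 (5.27) and Tnnt2 (4.56) were below the common array median of 5.88, so these differences are against values near background and their sizes depend on the constant. The atrial markers Myl7 and Nppa and the cardiac troponin Tnni3 lay below the filter. At the EOM junction 1 of the 8 rose and 3 fell, Tnnt2 by 1.80 among them, and at the TA junction 2 rose and 1 fell. Among genes expressed in all muscle fibres, Acta1 (-0.69 ± 0.18), Actn2 (-1.26 ± 0.28) and Neb, or nebulin (-0.69 ± 0.18), were lower in EOM fibre, and 3 of 9 fell and 0 rose there. Between junctions 4 of the 9 fell, the same 3 genes, at -1.37 to -0.69 over both comparisons, and Des, or desmin (-1.14; -0.34 in fibre, adjusted p = 0.48), and Myom2 was at -3.73 and -7.15. Centred on these 9 genes, the counts were 0 higher and 1 lower in fibre and 1 and 1 between junctions. Since the centring used the same 9 genes, it removes their shared shift, and these counts are no separate check.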

How the data were processed

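Affymetrix rat arrays measured RNA of 16 laser-captured samples; per the labels' protocols, amplification ran over a pair of cycles with 600 ng of amplified RNA carried forward and biotin label. Deposited values are linear intensity, 1 per probe set; their mean, trimmed by 2% at each end, is 150.06 to 150.08 on each array, so the authors scaled them. The sources used here do not name the software. Depth has no meaning for arrays, and their number limits the precision.

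The log2 medians differed by 0.564, over a limit of 0.5, so quantile normalization was applied to log2(intensity + 16). Without 57 control probe sets, 20826 probe sets had 1 gene, 436 several (not used) and 9780 none listed, with symbols updated through the GRCr8 gene table. Tests took probe sets exceeding the array median on 4 or more arrays, 1 per gene, that of highest mean. limma 3.58.1 (R 4.3.3) fitted 4 group means with the rat as a block (residual degrees of freedom 9, prior 4.58), with Benjamini-Hochberg adjustment over 10416 genes; the steps were tested on simulated data. Intervals are 95%.

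The block comes from the titles' numbers, read as the 4 rats of the design. With group means removed, 24 same-rat pairs correlated at a mean of 0.112 (-0.07 to 0.25; 16 over 0.1), other pairs at -0.04, and for 14 of the 16 arrays the nearest rat was their own. With the rat as a block, P-values measure the spread left within rats, pooled over the 4 groups and moderated by the prior over all genes. They rest on these 4 rats. The members, the gene lists and the alternatives were chosen with earlier results of these data known. Named genes are the 6 members, up to 4 listed genes past the threshold in a contrast, and the 3 genes most correlated with each member; others named, such as Mybpc3, Ttn, Ckm, Trim63, Trim54, Capn3, Obsl1, Ank1, Myh2, Myh4, Chrne and Sqstm1, were chosen after their values were seen. Alternatives covered the block, scaling, filter, constant, probe set choice, prior, threshold, and leaving out arrays or rats. The markers of 4 further lists gave, as higher and lower calls in EOM_fiber against TA_fiber, then between junctions, at the EOM junction and at the TA junction: endothelial 3 and 0, 1 and 1, 1 and 5, 1 and 3; smooth muscle 0 and 0, 0 and 2, 1 and 2, 1 and 2; macrophage 5 and 0, 0 and 0, 0 and 1, 0 and 0; limb position (Hox) 0 and 6, 0 and 5, 1 and 0, 1 and 0. Centred on the muscle genes, the same lists gave 9 and 0, 8 and 1, 1 and 0, 1 and 0; 6 and 0, 4 and 0, 2 and 0, 2 and 0; 8 and 0, 6 and 0, 1 and 0, 7 and 0; 1 and 4, 1 and 5, 2 and 0, 3 and 0. The 3 measured adipocyte markers had none past the limma threshold; centred on the muscle genes 2 were higher in each comparison of the muscles, and with a common median 1 was lower at the TA junction.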

Additional observations from a re-analysis of the deposited data

Results flagged for a closer look

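Of the 6 genes, 2 had a junction difference that differed between the muscles by the interaction test (limma, adjusted over all genes). For Myom2 the interaction was -3.42 ± 0.45 (adjusted p = 0.00207, negative in 4 of 4 rats; highest adjusted p over the alternatives 0.0314), from -3.33 in EOM and 0.09 in TA. For Mybpc2 it was -1.45 ± 0.28 (adjusted p = 0.0285, 4 of 4 rats; 0.000759 to 0.269 over the alternatives), from -1.33 in EOM and 0.12 in TA. The Mybpc2 call was lost in 22 of 33 alternatives. Dixon's 95% criterion marked no array in the 32 groups looked at, which include those of the second Mybpc2 probe set and of Mybpc3. With 4 arrays in a group this criterion can rarely mark one, so it cannot show that no array stood apart. For Mybph in TA_synapse, rat 29 was at 10.59 and the other rats at 9.17 to 9.42, and it was not marked.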

How the results depend on the processing

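The counts of the 6 genes past the threshold stayed within 3 to 5 (EOM_fiber against TA_fiber), 4 to 5 (between junctions) and 2 to 4 (EOM junction) over 35 alternatives. The calls among all genes were not steady. In fibre they were 732 with only the arrays of the contrast and 5973 on the muscle genes. Between junctions they were 1139 with a common median and 6340 on the muscle genes. At the EOM junction they were 445 at an adjusted p under 0.01 and 4973 on the muscle genes. An equal count of the 6 genes thus means different things between settings. At the TA junction the count of 0 among the 6 became 2 with values as deposited and 1 with arrays centred on the muscle genes, and 0 to 1 with an array or rat left out (1 without TA_synapse 27, where the gene was Mybphl). The interaction count of 2 became 1 without the replicate block, with values as deposited, a common median, a constant of 1, no filter, the probe set of highest variance, an adjusted p under 0.01, the muscle genes, and without the 3 arrays of highest median (EOM_fiber 15, TA_synapse 27 and TA_fiber 25; like the muscle genes, a setting chosen after seeing the data); with an array or rat left out it was 1 to 2. Without the replicate block all-gene calls were 1383, 1474, 831, 903 and 73, and Mybphl at the EOM junction and the Mybpc2 interaction were the member calls lost.

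Signs turned for values that had not passed. At the TA junction Mybpc2 was -0.34 (deposited), -0.38 (common median), -0.21 (mean of probe sets) and -0.53 (highest variance); Myom2 was -0.37, -0.41 and, without the 3 arrays, -0.18, and -0.12 to 0.27 with an array or rat left out; Mybpc1 was 0.069 on the muscle genes and -0.18 to 0.036 with an array or rat left out. Myom1 became 0.42 at the EOM junction and 0.42 between junctions on the muscle genes, and the Mybphl interaction 0.029 with a constant of 1. With an array or rat left out, Mybph at the EOM junction was -0.094 to 0.44 and its interaction -0.78 to 0.015. Mybphl could not be fitted at the TA junction with the TA arrays alone, where it fell below the filter. The cause of these changes was not tested.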
